A study of Mus musculus with 2 samples.

Results

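Mir208a, Mir208b and Mir499 are the miRNA genes that lie inside myosin heavy chain genes: Mir208a in Myh6, Mir208b in Myh7 and Mir499 in Myh7b. They were taken by name, as the rows of the deposited tables whose Ensembl identifiers GENCODE assigns to these 3 symbols, out of 1973 miRNA gene rows, and each symbol had 1 row. MicroRNA-seq, a count of RNAs shorter than 30 nucleotides, was made from hearts of healthy B6NCrl embryos at 13.5 days, males and females pooled. The single group holds 2 libraries from separate biosamples under 1 donor record, and the labels name no treatment, mutant allele or second condition. How many embryos went into a biosample is not given in the sources used here. The libraries are the biological replicates 1 and 2 of the labels.

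A miRNA in an intron is usually made from the host's own primary transcript: the hairpin is cut out of the intron, trimmed to a short duplex, and 1 strand of the duplex guides silencing of mRNAs that pair with its seed, bases 2 to 8. Myh6 encodes alpha myosin heavy chain, the fast cardiac isoform that prevails in the adult mouse ventricle. Myh7 encodes beta myosin heavy chain, the slower isoform of the fetal mouse ventricle and of slow skeletal muscle. Myh7b encodes a related slow-type myosin. In the adult heart miR-208a is known to be needed for the stress response that raises Myh7 and for expression of Myh7b with its miR-499, so these miRNAs are seen as 1 circuit of the myosin genes.

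The mature sequences are printed first because they show what the 3 share and whether their reads can be told apart. They were read from the RefSeq table (build GRCm38.p6, the same assembly as mm10), in which all 3 hairpins were found, and the seed is in capitals.
mmu-miR-208a-3p: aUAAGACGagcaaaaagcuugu
mmu-miR-208b-3p: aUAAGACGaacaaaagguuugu
mmu-miR-499-5p: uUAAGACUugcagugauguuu
mmu-miR-208a-5p: gAGCUUUUggcccggguuauac
mmu-miR-208b-5p: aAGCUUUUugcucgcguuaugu
mmu-miR-499-3p: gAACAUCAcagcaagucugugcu

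The 3p arms of miR-208a and miR-208b have the same seed, and no other of the 1738 mature miRNAs in the table has it. They are identical at 19 of 22 bases. Counted from the 5′ end, with the miR-208a base first, they differ by G10A, A16G and C18U, all 3 outside the seed. The seed of miR-499-5p differs from theirs in its last base. Bases 2 to 7 are the same in miR-208a-3p, miR-208b-3p and miR-499-5p, and these were the only 3 mature miRNAs of the table with that 6-base run. Position by position, and with that run included, miR-499-5p had 12 of 21 bases in common with miR-208a-3p and 10 of 21 with miR-208b-3p. The 5p arms of miR-208a and miR-208b also share a seed, which 1 other mature miRNA of the table carries, that of Mir6415. The Mir6415 row had 0 counts in either library. At these depths that limits its level to 0.539 CPM (sense counts per 1000000 sense counts of the library) in replicate 1 and 0.497 CPM in replicate 2.

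The longest exact run that a mature sequence of Mir208a or Mir208b shared with any other hairpin of the table was 9 bases, and for miR-499-5p and miR-499-3p it was 11 and 12 bases. No other of the 1005 hairpins therefore held a whole copy of any of the 6 mature sequences. This bears on the values because reads that map to several places form a separate class in these tables, 26.9% of all reads in replicate 1 and 28.0% in replicate 2. Whether such reads also enter gene rows is not given in the sources used here. A row counts reads over the whole hairpin, so the arms printed above cannot be told apart in the counts.

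The hairpins show where the arms lie, with both mature sequences of each in capitals.
Mir208a: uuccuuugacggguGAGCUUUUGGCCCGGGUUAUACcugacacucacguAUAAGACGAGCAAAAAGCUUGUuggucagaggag
Mir208b: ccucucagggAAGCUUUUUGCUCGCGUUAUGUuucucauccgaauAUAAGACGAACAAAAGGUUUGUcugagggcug
Mir499: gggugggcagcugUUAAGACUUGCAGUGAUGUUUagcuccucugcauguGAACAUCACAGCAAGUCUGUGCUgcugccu

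In Mir208a and Mir208b the sequence with the common 6-base run is on the 3p arm, and in Mir499 it is on the 5p arm. Aligned end to end, the hairpins of Mir208a and Mir208b were identical in 66.7% of columns, Mir208b and Mir499 in 60.0%, and Mir208a and Mir499 in 48.5%. The predicted folding energy was -37.6 kcal per mol for Mir208a, -32.2 for Mir208b and -42.5 for Mir499. Per nucleotide these are -0.45, -0.42 and -0.54, against a median of -0.41 over the 869 hairpins that have a row. By that measure Mir499 was more stable than 89.6% of those hairpins, Mir208a than 68.8% and Mir208b than 52.7%. The GC content was 49.4%, 45.5% and 51.9% for Mir208a, Mir208b and Mir499, each below the median of 52.3%.

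On mm10, Mir208a (ENSMUSG00000065432.1) spans chr14:54949060-54949142 on the minus strand, in intron 29 of Myh6. Mir208b (ENSMUSG00000077928.1) spans chr14:54975700-54975776 on the minus strand, in intron 31 of Myh7. Their genes lie 26557 bases apart, since Myh6 and Myh7 are neighbours on 1 strand with 3756 bases between them. Mir499 (ENSMUSG00000076312.1) spans chr2:155622880-155622958 on the plus strand, in intron 19 of Myh7b. No exon of any annotated gene overlaps any of the 3 hairpins. Introns are numbered along the transcripts Myh6-201, Myh7-201 and Myh7b-201, which have 39, 41 and 42 exons. Counted from the other end, 10 exons follow Mir208a in Myh6 and 10 follow Mir208b in Myh7, while 23 follow Mir499 in Myh7b. 

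**Figure D1:**
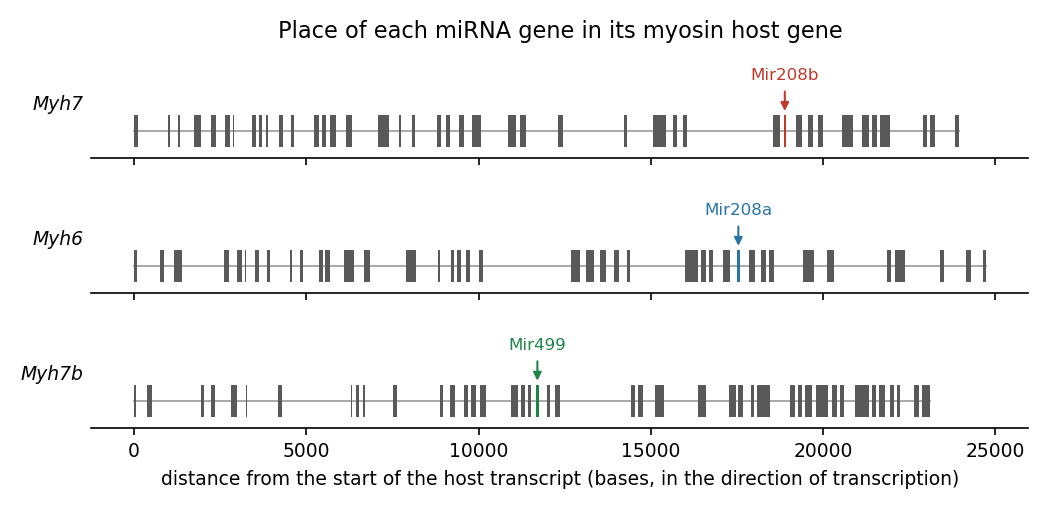
Exons (grey boxes) of the 3 myosin host transcripts, drawn to scale by distance in bases from the transcript start in the direction of transcription, with the miRNA gene of each in colour. Mir208b and Mir208a sit 18850 and 17499 bases from the start, each with 10 exons after it, and Mir499 sits 11668 bases from the start with 23 exons after it.

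All 3 host introns are short. The intron of Mir208a is 542 bases long, that of Mir208b 461 and that of Mir499 481. Across the 109 rows at a mean of 10 CPM or more that lie in an intron of a protein-coding gene on the same strand, the median intron was 8125 bases long. Only 8 of these 109 rows (7.34%) had an intron of 542 bases or fewer, and these 3 are among them. Each hairpin lay nearer to the exon before it than to the exon after it: 195 against 264 bases for Mir208a, 102 against 282 for Mir208b, and 158 against 244 for Mir499. Of the 109 intronic rows, 55 (50.5%) lay nearer to the exon before them.

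Replicate 1 held 5569959 sense counts over all miRNA gene rows and replicate 2 held 6039005, and levels in CPM are relative to these totals. One read stands for about 1 mature RNA of 21 to 23 nucleotides, so levels were not divided by length. Counting intervals are exact Clopper-Pearson 95% intervals, and they and the limits at 0 counts cover counting error only, since PCR copies are not independent molecules. The smallest p that exact sign flips of 2 libraries allow is 0.5, so a difference in level is judged by whether its sign is the same in both and its mean exceeds its SD. With 2 libraries that rule is lenient. It describes the 2 libraries and is not a test, so rows of close level may pass or fail it by accident.

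Mir208b, the miRNA of the beta myosin gene, was the highest of the 3. It held 232502 sense counts in replicate 1, or 41742 CPM (counting interval 41576 to 41909). In replicate 2 it held 266836, or 44185 CPM (44022 to 44350), for a mean level of 42964 ± 1728 CPM (SD, n = 2). Replicate 2 was slightly above replicate 1, and the counting intervals did not overlap.

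Mir208a, the miRNA of the alpha myosin gene, held 40934 sense counts in replicate 1, or 7349 CPM (counting interval 7278 to 7420). In replicate 2 it held 43346, or 7178 CPM (7110.5 to 7245), for a mean of 7263 ± 121 CPM. Its coefficient of variation between the libraries was 1.67%, against 4.02% for Mir208b. On total counts it was slightly higher in replicate 1, the opposite order to Mir208b, but under TMM scaling or with DESeq2 size factors it was lower there.

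Mir499, the miRNA of Myh7b, held 9060 sense counts in replicate 1, or 1627 CPM (counting interval 1593 to 1660). In replicate 2 it held 12225, or 2024 CPM (1989 to 2061), for a mean of 1825 ± 281 CPM. It was the lowest and the most variable of the 3, with a coefficient of variation of 15.4%. No count lay on the strand opposite to any of the 3 rows in either library.

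The order Mir208b, Mir208a, Mir499 was the same in both libraries, and every gap in it was larger than the SD between libraries. In heart tissue taken whole, fewer cells of a type and less RNA per cell cannot be told apart, so these levels describe the tissue. The host genes Myh6, Myh7 and Myh7b have no row in these tables, so their mRNAs were not analysed here and no host level stands beside a miRNA level. No other row lay within the span of any of the 3 host genes.

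**Figure D2:**
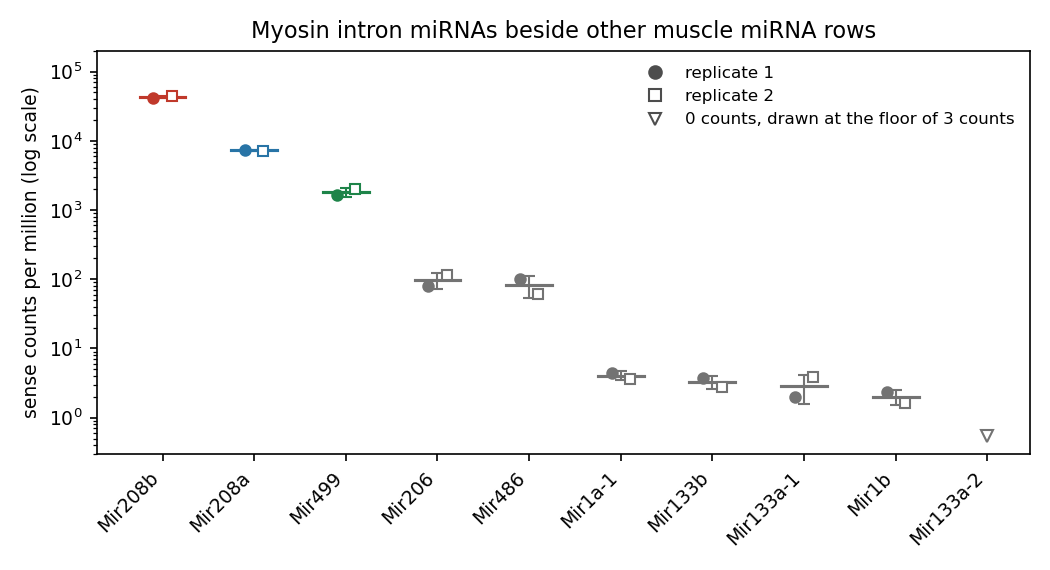
Sense CPM (log scale) in replicate 1 (filled circles) and replicate 2 (open squares) for the 3 myosin intron miRNAs and the 7 rows of a list of other muscle miRNAs, with the mean (line) and the SD (bars, n = 2); Mir133a-2 had 0 counts and is drawn at the level of 3 counts. The myosin miRNAs lie between 1627 and 44185 CPM, and the highest other row, Mir206, reached 116 CPM.

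Within a library the ratio of 2 rows does not depend on scaling. Ratios and ranks between rows were not corrected for differences in ligation or mapping between miRNAs, and the counting intervals do not cover these. The Mir208b row had 5.68 times the counts of the Mir208a row in replicate 1 (counting interval 5.62 to 5.74) and 6.16 times in replicate 2 (6.09 to 6.22). The mean log2 ratio was 2.56 ± 0.0821 (SD, n = 2), and the ratio was 8.38% higher in replicate 2. Between the neighbouring host genes on chromosome 14, the miRNA of the fetal ventricular myosin was thus the higher in both libraries.

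Mir208b had 25.7 times the counts of Mir499 in replicate 1 (counting interval 25.1 to 26.2) and 21.8 times in replicate 2 (21.4 to 22.2), a mean log2 ratio of 4.56 ± 0.165. Mir208a had 4.52 times the counts of Mir499 in replicate 1 (4.42 to 4.62) and 3.55 times in replicate 2 (3.48 to 3.62), a mean log2 ratio of 2.00 ± 0.247. Both ratios to Mir499 were lower in replicate 2, by 14.9% and 21.5%. For each of the 3 pairs the counting intervals of the libraries did not overlap, so the libraries differed by more than read sampling, while each mean log2 ratio was at least 8 times its SD.

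**Figure D3:**
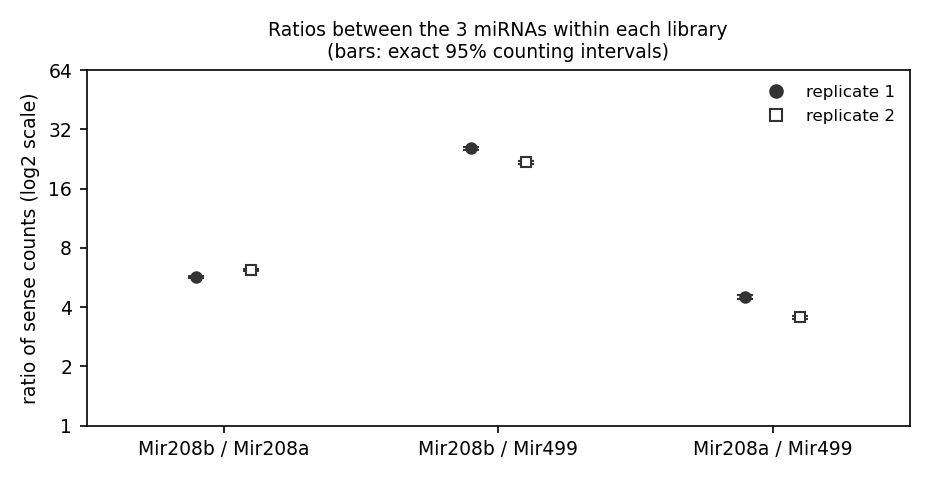
Ratio of sense counts (log2 scale) for each pair of the 3 miRNAs in replicate 1 (filled circles) and replicate 2 (open squares), with exact 95% counting intervals that are about as wide as the points. Mir208b over Mir208a was 5.68 in replicate 1 and 6.16 in replicate 2, and both ratios over Mir499 were lower in replicate 2.

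Of the counts that fell on the 3 rows together, Mir208b took 82.5% ± 0.326, Mir208a 14.0% ± 0.739 and Mir499 3.50% ± 0.413 (SD, n = 2). Together they took 5.07% of all sense counts in replicate 1 (counting interval 5.05% to 5.09%) and 5.34% in replicate 2 (5.32% to 5.36%). The rows with the seed common to miR-208a-3p and miR-208b-3p took 4.91% in replicate 1 and 5.14% in replicate 2, or 5.02% ± 0.161. The Mir499 row added 0.163% and 0.202%. Nearly all counts on rows with the common 6-base run therefore came from the Mir208b and Mir208a loci on chromosome 14.

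By mean level Mir208b ranked 6th of the 1973 rows, Mir208a 25th and Mir499 64th. Mir208b ranked 7th in replicate 1 and 6th in replicate 2, Mir208a ranked 26th in both, and Mir499 ranked 66th and then 60th. Rows at a mean of 10 CPM or more numbered 288, and their median level was 203 CPM in replicate 1 and 188 CPM in replicate 2. Mir208b stood 206-fold and 235-fold above that median in the 2 libraries, Mir208a 36.2-fold and 38.2-fold, and Mir499 8.02-fold and 10.8-fold. How far the class of multi-mapping reads shifts these ranks and folds was not tested.

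The rows beside each in the order were compared by the same SD. Mir208b lay below Mir99a (65577 ± 946 CPM) in both libraries, with a log2 ratio of -0.61 ± 0.0789. It lay above Mirlet7g (41765 ± 1597 CPM) by a log2 ratio of only 0.04 ± 0.0029. Of the rows up to 15 places away in rank, Mirlet7i (42988 CPM, then 36595 CPM in replicate 2) was the 1 from which Mir208b did not differ beyond the spread, since their order changed between libraries. 

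Mir208a lay below Mir487b (7566 ± 11.9 CPM), a miRNA of the imprinted Dlk1-Dio3 region, by a log2 ratio of -0.06 ± 0.0264, and this was the nearest row to it over the 2 libraries. Within the same 15 places it could not be told from Mir411, Mir93 and Mir20a, whose order with it changed or whose difference was within the SD. Mir499 could not be told from 11 rows within 15 places, among them its neighbours Mir484 (1863 ± 52.0 CPM) and Mir15a (1737 ± 170 CPM). By the distance of log2(CPM + 1) over both libraries, the rows closest to Mir208b were Mirlet7g, Mirlet7i and Mir99a, those closest to Mir208a were Mir487b, Mir411 and Mir93, and those closest to Mir499 were Mir381, Mir188 and Mir107. That likeness rests on 2 libraries and is one of level only.

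**Figure D4:**
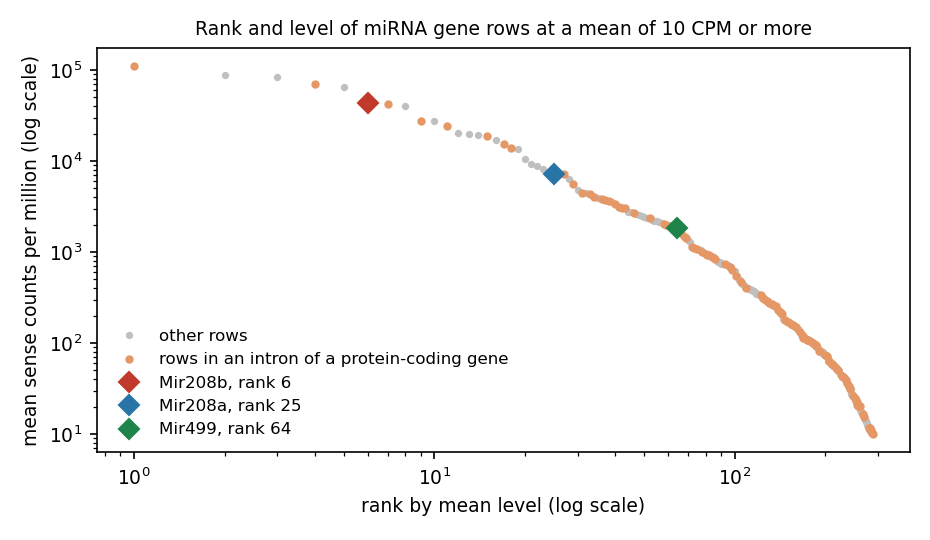
Mean sense CPM against rank (both log scales) for the 288 rows at a mean of 10 CPM or more, with rows in an intron of a protein-coding gene in orange, other rows in grey and the 3 myosin intron miRNAs as diamonds. Mir208b lies at rank 6, Mir208a at rank 25 and Mir499 at rank 64.

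Compared with other intronic miRNAs, the 3 were high. Among the 109 intronic rows Mir208b ranked 3rd, Mir208a 10th and Mir499 27th, while these rows had a median of 227 CPM (replicate 1) and 215 CPM (replicate 2). Only Mir335 in Mest (110067 ± 2450 CPM) and Mir126a in the endothelial gene Egfl7 (70450 ± 6259 CPM) were above Mir208b, and Mirlet7g in Wdr82 and Mir26b in Ctdsp1 (27782 ± 2723 CPM) followed it. The 3 myosin miRNAs took 11.0% of all counts on the 720 intronic rows in replicate 1 and 11.8% in replicate 2.

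A list of other muscle miRNAs was read beside them: 8 symbols of the miR-1, miR-133, miR-206 and miR-486 groups, of which 7 have a row. Their rows held 194 CPM in all in replicate 1 and 189 CPM in replicate 2, so the 3 myosin miRNAs together were 262-fold and 282-fold above them. Most of that came from Mir206, known from skeletal muscle, at 97.6 ± 25.5 CPM, and Mir486, known from muscle and red cells, at 81.8 ± 28.1 CPM. Mir206 and Mir486 also were the 2 rows of the list at 10 CPM or more.

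The rows of miR-1 and miR-133, the main miRNAs of heart muscle in textbooks, were near or at 0. Mir1a-1 held 25 and 22 counts, Mir133a-1 held 11 and 23, Mir133b held 21 and 17, and Mir133a-2 held 0 in both libraries. The Mir1b row held 13 and 10 sense counts, with 98 counts in each library on the strand opposite to it, where GENCODE annotates Mir1a-2. As background, miR-1 and miR-133a have several source loci in the genome, whereas no second copy of a myosin miRNA was found in the hairpin table. Neither whole arm of miR-133b, nor miR-1a-1-5p, was found in any other hairpin of the table. That search covered neither the other arm of miR-1a nor miR-133a, and it did not count near copies. Mir133b was at 3.29 ± 0.675 CPM and Mir1a-1 at 4.07 ± 0.598 CPM. The gap between the myosin miRNAs and these rows therefore compares rows, and how far the class of multi-mapping reads enters it was not tested. The labelled tissue was heart. Of the cardiomyocyte markers other than the 3, all 3 with a row were below 5 CPM, and the myosin miRNAs themselves are the cardiomyocyte miRNAs with high counts here.

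Marker lists of other cell types were summed in the same libraries. The endothelial list, with 1 of 2 symbols in the tables (Mir126a), summed to 74876 CPM (replicate 1) and 66025 CPM (replicate 2), and Mir126a was 1.64-fold above Mir208b (log2 ratio of Mir208b over Mir126a -0.71 ± 0.186). The smooth muscle list, Mir143 and Mir145a, summed to 85136 and 93532 CPM, and Mir143 was 2.06-fold above Mir208b (log2 ratio -1.04 ± 0.0382). Nearly all of that sum was Mir143. Mir145a was at only 868 CPM in replicate 1 and 931 CPM in replicate 2, far below Mir208b. Mesenchyme and fibroblast rows, 5 of 5 and led by Mir21a, summed to 19693 and 20725 CPM, so the 3 myosin miRNAs together were 2.58-fold higher in both libraries.

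The other lists were far lower. Pluripotent markers led by Mir302a (7 of 7 rows) summed to 2370 and 2659 CPM, and epithelial markers led by Mir429 (5 of 5) to 1863 and 1462 CPM. Erythroid markers led by Mir451a (3 of 3) summed to 1261 and 959 CPM, and leukocyte markers led by Mir223 (2 of 3) to 587 and 473 CPM. The liver marker Mir122 was at 201 and 591 CPM, and the skeletal muscle rows Mir206 and Mir133b summed to 83.3 and 118 CPM. The neural list names the Mir124 genes by both older and newer symbols, and of its genes Mir9-1 alone had no row. Of the 6 rows 4 were at 0 counts, and the list summed to 85.6 and 54.1 CPM, nearly all from Mir137. The rows at 0 were Mir124a-1, Mir124a-2, Mir124a-3 and Mir9-2, each from a group with several genes in the list. How far the class of multi-mapping reads enters these rows, or the Mir199a rows of the mesenchyme list, was not tested. Those low values therefore describe rows and do not show that the mature miRNA was absent.

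Slow skeletal muscle also expresses the host genes of Mir208b and Mir499, so their rows were set beside the skeletal muscle marker Mir206. The Mir208b row had 525 times the counts of Mir206 in replicate 1 and 382 times in replicate 2. Mir499 had 20.5 and 17.5 times the counts of Mir206. These ratios are larger than their SD on the log2 scale, 8.81 ± 0.323 and 4.24 ± 0.158. Any part of skeletal muscle in the counts of the 3 rows was not tested.

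The libraries were then compared with each other by a two-sided exact binomial test on counts over all 288 rows, with Benjamini-Hochberg adjustment. There is no condition in this contrast: it sets 1 library's reads against the other's. On total counts Mir208b had a log2 ratio of replicate 1 over replicate 2 of -0.08 (adjusted p = 2.54e-88), Mir499 of -0.32 (adjusted p = 1.61e-55) and Mir208a of 0.03 (adjusted p = 0.00132). All 3 of 3 passed the adjusted threshold of 0.05, as did 61.5% of the 288 rows, so passing it is usual between these libraries. None of the 3 also reached a ratio of 1.5, against 5.90% of the 288 rows.

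In size, the difference of Mir208a was small, with only 7.99% of the 288 rows closer to 0, and that of Mir208b was smaller than most, with 24.3% of rows closer to 0. That of Mir499 was larger than in 78.1% of rows, against a median absolute log2 ratio of 0.16. Most of the 288 rows have a lower level than Mir499, so these shares compare rows of unlike level. Among rows with a higher mean level than Mir499, only Mir296 differed by more, with a log2 ratio of 0.35. The median log2 ratio of all rows was itself 0.10, and relative to it all 3 were lower in replicate 1, by -0.07 for Mir208a, -0.18 for Mir208b and -0.42 for Mir499. Under TMM scaling and with DESeq2 size factors, which take that shift out, the ratio of Mir208a changed sign, to -0.07 and -0.08. 

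Only 14 of the 288 rows had a lower signed ratio than Mir499. On total counts 189 of the 288 rows were higher in replicate 1, so being lower in replicate 2 was the more common direction. The endothelial, erythroid, leukocyte, epithelial and neural sums given above were lower in replicate 2, where Mir499 and Mir208b were higher, and those of smooth muscle, mesenchyme, pluripotent and skeletal muscle markers and of Mir122 were higher there. Within the mesenchyme list only Mir21a was higher in replicate 2 (16216, then 17793 CPM). The other 4 rows were lower there, Mir214 at 2992 and then 2522 CPM. In other lists, the leukocyte row Mir155 was higher in replicate 2, against its list sum. The pluripotent rows Mir290a and Mir294 and the skeletal muscle row Mir133b were lower in replicate 2, against theirs. The part of these markers in the differences at the 3 rows was not tested.

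**Figure D5:**
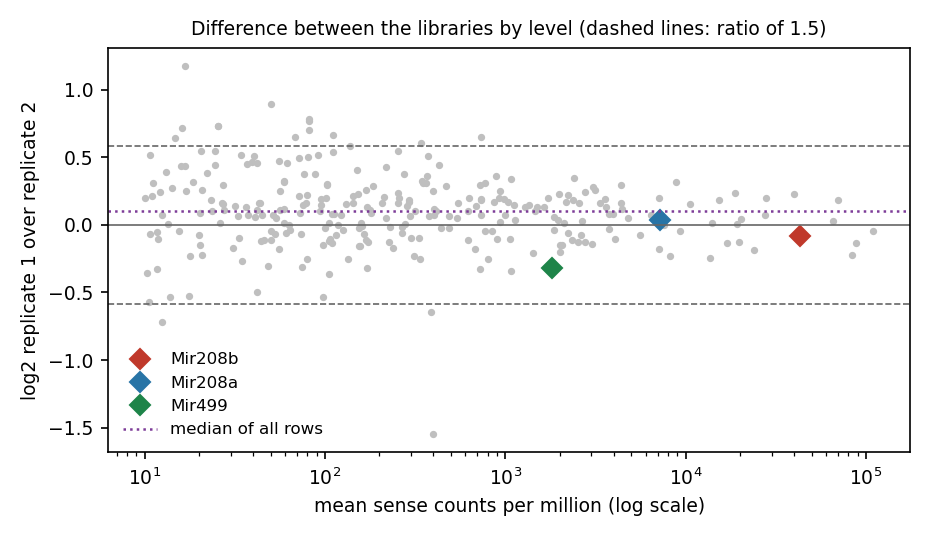
Log2 ratio of replicate 1 over replicate 2 against mean sense CPM (log scale) for 288 rows (grey) and the 3 myosin intron miRNAs (diamonds), with dashed lines at a ratio of 1.5 and a dotted line at the median of all rows, 0.10. Mir208a (0.03 on total counts, below 0 under TMM and DESeq2 scaling), Mir208b (-0.08) and Mir499 (-0.32) all lie below the median line and inside the dashed lines.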

How the data were processed

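For each miRNA gene the authors deposited a raw count of reads on both strands, on the gene's strand and on the opposite strand. Reads were aligned to mm10 with GENCODE M4, per the deposited notes; for the aligner and counter, the version and name were not given in the sources used here. Which column is the gene's strand was read from the values, since most counts lie in it. Sense counts were scaled to the summed sense counts of the 1973 gene rows, and the 4 rows of read classes were left out. GENCODE M21 (also mm10) gave symbols for 1894 rows and the introns, and RefSeq gave the sequences. Libraries were compared with an exact binomial test (scipy 1.17.1) over rows at a mean of 10 CPM or more, with a ratio threshold of 1.5 and a pseudocount of 1 CPM. The test was checked on simulated counts that vary by read sampling only. That check does not cover the larger spread between these libraries. Scaling alternatives used edgeR 4.0.16 and DESeq2 1.42.0. Hairpins were folded with RNAfold 2.7.2 and aligned with Biopython 1.88. Named rows were the 3 miRNAs, the other muscle miRNAs, the top row of each marker list, the nearest rows by level, rows that share a seed and the 5 highest intronic rows. A few further rows were named where they limit a statement. Members, lists and tests were chosen with earlier results of these data known. Where nothing says how the biosamples were drawn, the spread between libraries may be partly technical.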

Additional observations from a re-analysis of the deposited data

How the results depend on the processing

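The ratios between the 3 miRNAs kept their direction with both strands counted, with a pseudocount of 10 counts and with either library left out. Levels were within the SD between libraries under TMM and DESeq2 scaling. With all reads of a library as the denominator the levels became 20441 per 1e+06 reads for Mir208b, 3451 for Mir208a and 871 for Mir499, the summed share of the 3 became 2.48%, and that of Mir208a with Mir208b 2.39%. With both strands counted Mir208b was at 40784 CPM, Mir208a at 6895 CPM and rank 26, and those shares were 4.94% and 4.77%. Without Mir335, the most abundant row, they were 5.85% and 5.64%. Leaving out either library put Mir208b at rank 6 to 7 and Mir208a at rank 26 both times. The log2 ratio of replicate 1 over replicate 2 at Mir208a reversed to -0.0695 under TMM scaling and -0.0826 with DESeq2 size factors, which moved the median of all rows from 0.0998 to -0.0031 and -0.0161. The number of rows called between the libraries, 17, was 39 at a mean of 1 CPM or more, 6 at 100 CPM or more and 2 at a ratio of 2, and none of the 3 was among them at a ratio of 1.5. By direction, 14 of the 17 were higher in replicate 1, and TMM scaling called 8 in each. No paired analysis was possible because there is 1 group. With 2 libraries each SD rests on 1 difference.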
